A study of Xiphophorus multilineatus with 4 samples.

Results

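The genes mpx, xdh, irf1b and anxa1c are 4 of the 18872 transcripts counted in whole brains of the swordtail fish Xiphophorus multilineatus. They were selected by name, with results of these brains known, from the transcripts that the study lists as differing between its 2 rearing groups. The difference between the groups in these brains is therefore what chose them, and their values are given here as a description. Their identifiers, which are those of the best matching X. maculatus transcripts, are ENSXMAT00000004169 (mpx), ENSXMAT00000003574 (xdh), ENSXMAT00000011129 (irf1b) and ENSXMAT00000008573 (anxa1c). All 4 were read in every brain. The name mpx is marked in the study's list as belonging to several fish transcripts and its human counterparts are MPO, EPX and LPO, so its count may be split or shared with close copies.

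The brains came from 4 adult males, laboratory-reared descendants of wild-caught females, all of the genetically influenced Y-II size class and all kept on the high quality adult diet. The 2 males with a juvenile environment of high quality (HQJE, fish 15 and 11) lived alone after 14 days of age and had Tetramin and brine shrimp without limit. The 2 males with a juvenile environment of low quality (LQJE, fish 17 and 18) lived in group tanks from birth. These tanks held more than 6 fish per litre, and the fish had Tetramin once a day. As adults, on the shared diet, males of both groups were housed singly. Juvenile food, density and company changed together, so that their effects cannot be told apart. Each brain was a library of its own, made from polyA RNA with a RIN score above 8.

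All 4 genes act in inflammation or in the chemistry of oxidants. Myeloperoxidase, the product of mpx, is stored in the granules of neutrophils and turns hydrogen peroxide into hypochlorous acid, and in zebrafish the mpx gene is a standard neutrophil marker. Xanthine dehydrogenase, encoded by xdh, carries out the last steps of purine breakdown to uric acid, and its oxidase form releases superoxide and hydrogen peroxide. IRF1, to which irf1b corresponds, is a transcription factor induced by interferon, and annexin A1, to which anxa1c corresponds, is a calcium-dependent phospholipid-binding protein that is induced by glucocorticoids in mammals and limits the entry of neutrophils into tissue.

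Total counts per brain lay between 14260762 and 25531496. Expression is given as CPM (counts scaled to a common library total) after TMM scaling, the between-library scaling of edgeR. LQJE fish 17 stood apart. Its Pearson correlations of log2 CPM were between 0.967 and 0.970 to the other 3 brains, against 0.983 to 0.986 among those 3. They are over 15087 transcripts, which are not independent replicates. The closest pair crossed the groups, HQJE fish 15 with LQJE fish 18 (0.986), where the 2 HQJE brains had 0.985. The 2 LQJE brains were the least alike pair (0.967), so the brains did not sort by group. The threshold used was that of the study, a change of at least 2-fold at an unadjusted p no higher than 0.01, in the quasi-likelihood test of edgeR over 18474 transcripts. It was passed by 35 transcripts, 0.189% of those tested, of which 9 were higher (0.0487%) and 26 lower (0.141%) in HQJE brains. Without TMM scaling these numbers were 19 and 21. With the same cutoffs the study lists 131 transcripts, and the edgeR exact test had 133 here. Where no other test is named, a transcript not past the threshold is so in the quasi-likelihood test, not by the study's own list. After Benjamini-Hochberg adjustment no transcript reached 0.05 in the quasi-likelihood test, where 1403 had an unadjusted p up to 0.05. By contrast, the exact and likelihood ratio tests of edgeR and DESeq2 had 35, 42 and 79 transcripts at an adjusted 0.05.

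In these brains mpx and xdh were higher and irf1b was lower in both HQJE brains than in both LQJE brains. The fitted fold was 3.24 for mpx and 2.03 for xdh in HQJE over LQJE, and irf1b was 2.39-fold lower in HQJE. In anxa1c the groups overlapped, and LQJE fish 18 alone held 71.4% of the summed CPM of the 4 brains. Groups that do not overlap in either direction were seen in 39.9% of all tested transcripts, and since this contrast chose the genes nothing is read from the 3 of 4. Of the 4 genes irf1b alone was past the threshold in the quasi-likelihood test, beside the 0.189% over all transcripts, and mpx, xdh and anxa1c were not. The exact test of edgeR put all 4 past the same cutoffs, beside 0.72% of all transcripts.

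**Figure D1:**
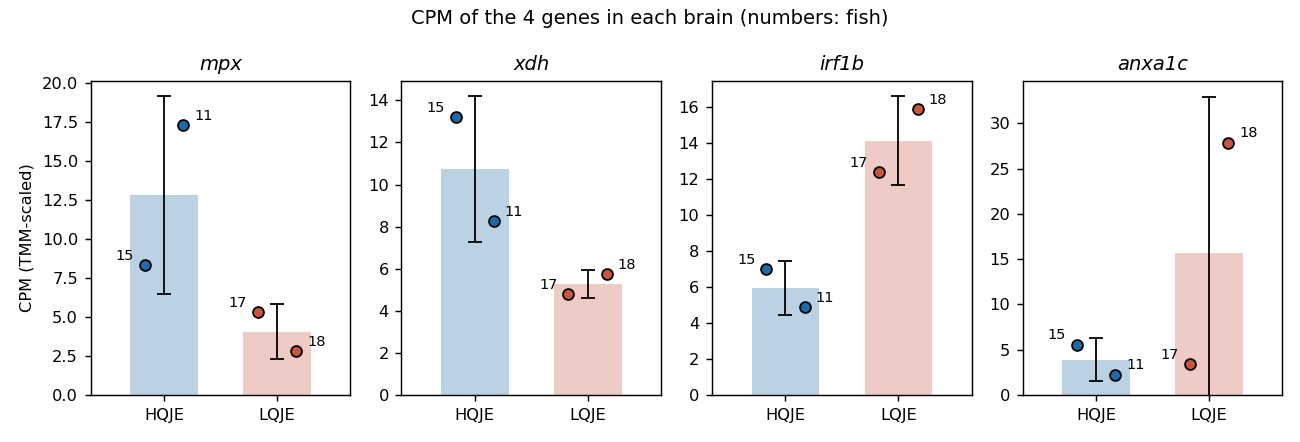
CPM (vertical axis, TMM-scaled, from 0) of mpx, xdh, irf1b and anxa1c in each brain, with HQJE on the left and LQJE on the right of each panel. Points are brains with their fish numbers, bars are group means and error bars are the SD (n = 2), which for anxa1c in LQJE extends below the axis. The groups are apart in mpx, xdh and irf1b, whereas in anxa1c LQJE fish 18 lies at 27.9 CPM and the other brains lie between 2.21 and 5.55 CPM.

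The mpx transcript was read 183 and 383 times in HQJE fish 15 and 11, against 73 and 70 times in LQJE fish 17 and 18. This corresponds to 8.32 and 17.3 CPM in the HQJE brains, against 5.29 and 2.79 CPM in the LQJE brains, or 12.8 ± 6.35 CPM in HQJE and 4.04 ± 1.77 CPM in LQJE (SD, n = 2 each). HQJE fish 11 was the highest brain and held 51.3% of the summed CPM, and the lowest HQJE brain was 3.03 CPM above the highest LQJE brain. HQJE over LQJE, the log2 fold change was 1.69 (standard error 0.460). HQJE fish 11 was 3.27-fold and 6.21-fold above LQJE fish 17 and 18, whereas HQJE fish 15 was 1.57-fold and 2.98-fold above them. Leaving out fish 11 lowered the log2 fold change to 1.06, and leaving out fish 15 raised it to 2.12, which was then past the threshold, as were 0.304% of all transcripts in that fit. Without LQJE fish 17, the library that stands apart, it was 2.19 and not past the threshold, which 0.407% of all transcripts passed.

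The xdh transcript had 290 and 183 counts in HQJE fish 15 and 11, against 66 and 144 counts in LQJE fish 17 and 18. The CPM was 13.2 and 8.27 in the HQJE brains, against 4.78 and 5.74 in the LQJE brains, giving 10.7 ± 3.48 in HQJE and 5.26 ± 0.674 in LQJE (SD, n = 2 each). Here HQJE fish 15 was the highest brain, and the groups were 2.53 CPM apart at their nearest brains. The 2 HQJE brains differed 1.60-fold, whereas the 2 LQJE brains differed 1.20-fold. The log2 fold change was 1.02 (standard error 0.283), close to the 2-fold limit. It was 0.65 without fish 15, 0.90 without fish 17 and 1.19 without fish 18, none past the threshold, and 1.32 without fish 11, which was past it. The share of all transcripts past it was 0.359% without fish 11 and 1.89% without fish 18.

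The irf1b transcript was read 154 and 108 times in HQJE fish 15 and 11, against 171 and 399 times in LQJE fish 17 and 18. After scaling for the smaller library of fish 17 this is 7.0 and 4.88 CPM in the HQJE brains, against 12.4 and 15.9 CPM in the LQJE brains. The means were 5.94 ± 1.5 CPM in HQJE and 14.1 ± 2.48 CPM in LQJE (SD, n = 2 each), and the nearest brains of the 2 groups were 5.39 CPM apart. The log2 fold change was -1.26 (standard error 0.248). It kept its sign with every brain left out and was -1.54 without fish 15 and -1.42 without fish 17, both past the threshold, and -1.02 without fish 11 and -1.03 without fish 18, which were not.

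The anxa1c transcript had 122 and 49 counts in HQJE fish 15 and 11, against 47 and 700 counts in LQJE fish 17 and 18. In CPM this is 5.55 and 2.21 in the HQJE brains, against 3.41 and 27.9 in the LQJE brains. LQJE fish 17 lay between the 2 HQJE brains, and LQJE fish 18 was 5.03-fold above the next highest brain, HQJE fish 15. The means of 3.88 ± 2.36 CPM in HQJE and 15.6 ± 17.3 CPM in LQJE (SD, n = 2 each) therefore rest on fish 18. The log2 fold change was -2.04 (standard error 0.946), the largest in size and the least precise of the 4. Without fish 18 it was 0.22, with the sign turned round, and without fish 17 it was -2.85 and past the threshold.

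**Figure D2:**
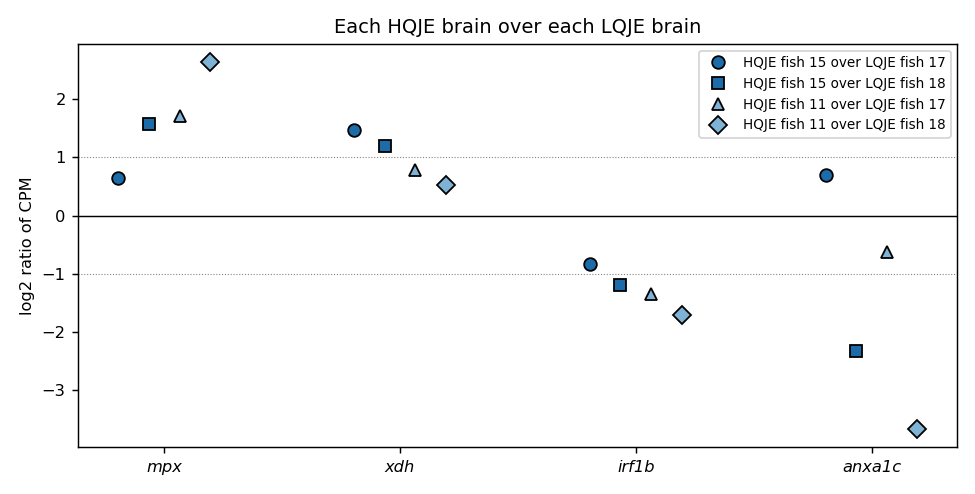
Log2 ratio of CPM (vertical axis) of each HQJE brain over each LQJE brain for the 4 genes, with dotted lines at a 2-fold change in either direction. All pairs lie above 0 for mpx and xdh and below 0 for irf1b, while for anxa1c HQJE fish 15 is 1.63-fold above LQJE fish 17 and the other 3 pairs lie below 0.

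How far brains of the same group differ does not compare the groups, but it comes from the same 4 brains that chose the genes. It is given as a description, and here the 4 genes were unlike each other. Among the 15087 transcripts averaging at least 1 CPM, the median absolute log2 difference was 0.16 between the 2 HQJE brains and 0.18 between the 2 LQJE brains. For anxa1c these differences were 1.29 in HQJE and 3.0 in LQJE, and 1.09% and 0.703% of the transcripts differed more. For mpx they were 1.05 in HQJE and 0.90 in LQJE, exceeded by 2.06% and 7.88% of the transcripts. The gaps of xdh were 0.67 in HQJE and 0.26 in LQJE, exceeded by 6.98% and 37.0%, and those of irf1b were 0.51 in HQJE and 0.36 in LQJE, exceeded by 12.3% and 26.4%. All 4 genes lay above the median within both groups, but that median is not matched for abundance. The biological coefficient of variation that edgeR assigned was 61.8% for anxa1c, 32.7% for mpx, 23.1% for xdh and 20.3% for irf1b, where the trend at the same abundance was 20.6%, 21.9%, 22.4% and 20.5%. Set against that trend, anxa1c and mpx were above it, whereas xdh and irf1b lay close to it.

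**Figure D3:**
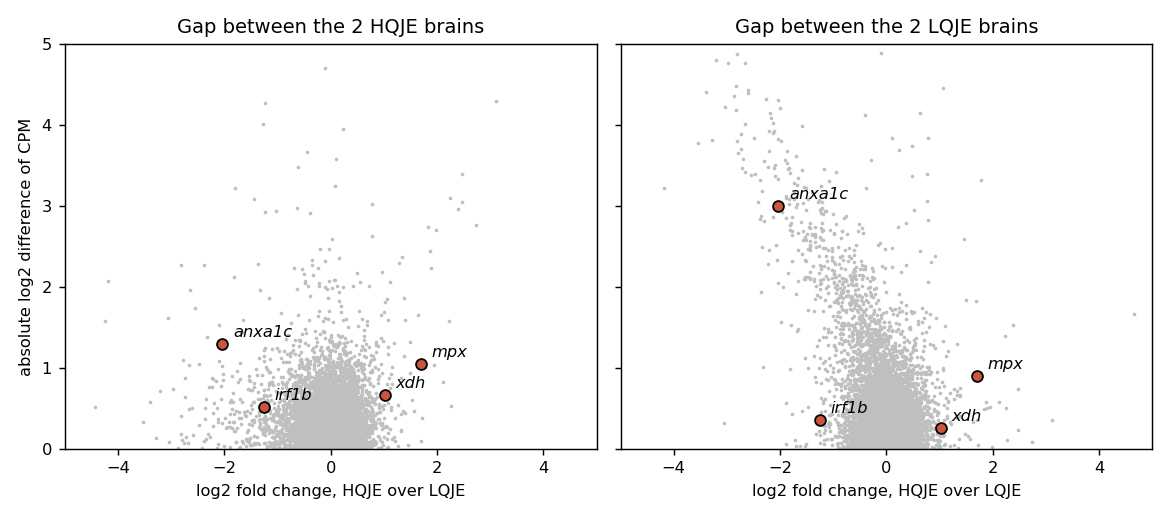
Log2 fold change of HQJE over LQJE (horizontal axis) against the absolute log2 difference of CPM (vertical axis, prior count of 2) between the 2 HQJE brains on the left and the 2 LQJE brains on the right. Grey points are the transcripts averaging at least 1 CPM, and red points are the 4 genes. The axes end at 5, which leaves 16 transcripts out of the left and 17 out of the right panel. The anxa1c point stands high in the LQJE panel at 3.0, while irf1b and xdh stay low at 0.36 and 0.26.

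The brains were not ordered alike in the 4 genes. From high to low the order was fish 11, 15, 17 and 18 for mpx, fish 15, 11, 18 and 17 for xdh, fish 18, 17, 15 and 11 for irf1b and fish 18, 15, 17 and 11 for anxa1c. HQJE fish 11 was thus highest for mpx and lowest for irf1b and anxa1c, and LQJE fish 18 was lowest for mpx and highest for irf1b and anxa1c. Likeness of pattern was measured as the Euclidean distance between centred log2 CPM over the 4 brains. It was 1.60 between mpx and xdh and 1.96 between irf1b and anxa1c, and 4.45 between mpx and anxa1c, the most unlike pair. These distances describe 4 brains and carry no test.

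Among 15083 other transcripts, the pattern nearest to mpx was that of mogat3a, a monoacylglycerol acyltransferase of fat synthesis, at a distance of 0.39. It had 11.9 and 25.2 CPM in HQJE fish 15 and 11, against 6.45 and 5.02 CPM in LQJE fish 17 and 18. The next named transcripts were pcmtd1 (distance 0.85, rank 14) and the cation channel gene trpc6b (distance 0.96, rank 18). Only transcripts of the study's list carry names, and these were chosen from the same contrast, so that their shared direction is built in.

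For xdh the nearest named transcripts were the bile salt transporter gene abcb11b (distance 0.46, rank 35), the sodium pump gene atp1a1a.5 (0.57, rank 108) and the glycosyltransferase gene b3gnt7 (0.81, rank 749), where the nearest of all transcripts, which has no name, was at 0.23. For irf1b the nearest named transcript was myl1, a fast skeletal muscle myosin light chain, at a distance of 0.22 and rank 2, followed by NME1 (0.45, rank 10) and ACSBG1 (0.47, rank 11). The myl1 transcript had 2.14 and 1.81 CPM in HQJE fish 15 and 11, against 4.35 and 5.10 CPM in LQJE fish 17 and 18. For anxa1c the 3 nearest of all transcripts were named ones, namely wee2 (0.81), VILL (0.91) and tmprss4a (1.14), a kinase of the oocyte cell cycle in mammals, a villin-like actin-binding protein and a transmembrane serine protease. All 3 share the high value of LQJE fish 18, at 23.6, 4.30 and 5.02 CPM, against at most 5.15, 0.455 and 0.318 CPM in the other brains. Since they were picked by likeness to anxa1c, that shared high value is built in.

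Muscle transcripts and pineal and photoreceptor transcripts are in the study's list as well. The summed CPM of 4 fast muscle genes (tnnt3a, myl1, mylpfa and tnnc2) was 5.82 and 5.24 in HQJE fish 15 and 11, against 15.0 and 17.7 in LQJE fish 17 and 18, the same direction as irf1b. All 4 were lower in both HQJE brains, beside 21.1% of all tested transcripts. Of the 4, 3 were past the threshold, beside 0.141% called lower over all transcripts. These genes too are in the list that the contrast gave. The study also files the human matches TNNI2 and MYH13 under muscle contraction, and these were not followed here. The mylpfa transcript, which was not past the threshold, had 0 counts in both HQJE brains, against 3 and 37 in LQJE fish 17 and 18. Fish 18 thus held 87.1% of its summed CPM. The pineal and photoreceptor genes saga and tph1a were summed as well. Their summed CPM was 72.8 and 21.1 in the HQJE brains, against 16.2 and 13.2 in the LQJE brains. Fish 15 was highest in this sum and in xdh, as it was in 2922 of the 15087 transcripts averaging at least 1 CPM. Most of this sum was tph1a, and neither saga nor tph1a was past the threshold. The saga transcript had 11.4 CPM in HQJE fish 15 but 1.67 CPM in HQJE fish 11, against 1.67 and 1.63 CPM in LQJE fish 17 and 18. The part of muscle or pineal tissue in the values of the 4 genes was not tested. Of the neutrophil markers mpx is the one with a name in the study's list, and the brain, microglia, lymphocyte, blood and vessel markers carry no name there, so that the tissue label was not checked against its markers. In whole brain RNA, fewer cells of a type and less RNA per cell cannot be told apart.

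Beside the 4 genes, 11 further immune transcripts of the study's list were followed. Of these, 6 had a positive and 5 a negative log2 fold change, with a median of 1.09, which is the value of socs3a. The study listed changes of at least 2-fold, so this median could not lie near 0 and nothing is read from it. The transcript past the threshold was 1 of the 11, beside 0.189% of all transcripts, namely gig2j, a gene that fish switch on in response to virus. The gig2j transcript had 11 and 16 counts in HQJE fish 15 and 11, against 27 and 53 in LQJE fish 17 and 18, so that it was lower in both HQJE brains, as irf1b was. The transcript of isg15, a ubiquitin-like protein induced by interferon, had the opposite direction, with 27 and 25 counts in the HQJE brains, against 3 and 0 in the LQJE brains. The pooled ratio of HQJE over LQJE for isg15 was 15.3, with an exact 95% interval from 4.95 to 76.5. This interval covers counting error only and rests on the 3 and 0 counts of the LQJE brains. Nothing is read from it, because the contrast chose isg15. The isg15 transcript was not past the threshold. The isg15 name is also marked as belonging to several fish transcripts.

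Among receptors, xcr1a.1, a chemokine receptor gene, had 29 and 13 counts in the HQJE brains, against 1 and 5 in the LQJE brains. The homolog of the interleukin-18 receptor gene IL18R1 had 11 and 98 counts in the HQJE brains, against 0 and 2 in the LQJE brains. Most of these were in fish 11. That brain was also highest for mpx, and for 3910 of the 15087 transcripts averaging at least 1 CPM. The cytokine inhibitor gene socs3a had 206 and 383 counts in the HQJE brains, against 81 and 166 in the LQJE brains. In all 3 of these genes both HQJE brains were above both LQJE brains, and none was past the threshold. Over the 11 immune transcripts both HQJE brains were above both LQJE brains in 4 and below them in 4, beside 18.8% and 21.1% of all tested transcripts, and nothing is read from these counts because the contrast chose the list.

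In 6 of the 11 immune transcripts more than 75% of the summed CPM lay in 1 brain, as was so in 464 of all 18474 tested transcripts. LQJE fish 18 was that brain for a transcript paired with human GIMAP genes, GTPases of lymphocytes, with 2 and 2 counts in the HQJE brains, against 4 and 55 in LQJE fish 17 and 18. It was also that brain for the immunoglobulin light chain transcript IGKV1D-33, with 0 and 0 counts in the HQJE brains, against 2 and 61 in the LQJE brains. A transcript paired with the human MHC class I-like genes MICA, MICB and FCGRT had 0 and 0 counts in the HQJE brains, against 3 and 15 in the LQJE brains. These 3 transcripts were highest in fish 18, as anxa1c was. So was gig2j, though narrowly, at 2.11 CPM against 1.96 CPM in LQJE fish 17. LQJE fish 18 was the highest brain for 3644 of the 15087 transcripts averaging at least 1 CPM. Nothing is read from these matches. The summed CPM of the immune list was not highest in fish 18. That sum was 28.2 and 26.9 in HQJE fish 15 and 11, against 15.7 and 15.2 in LQJE fish 17 and 18. It was mostly ctsl.1 (14.7 CPM) and socs3a (9.37 CPM) in fish 15, and mostly socs3a (17.3 CPM) in fish 11, so it does not stand for the list as a whole. The isg15 and fam19a4a transcripts had 0 counts in fish 18. The other 4 transcripts carried by 1 brain were ctsl.1 in HQJE fish 15, fam19a4a and the IL18R1 homolog in HQJE fish 11 and lyst in LQJE fish 17.

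**Figure D4:**
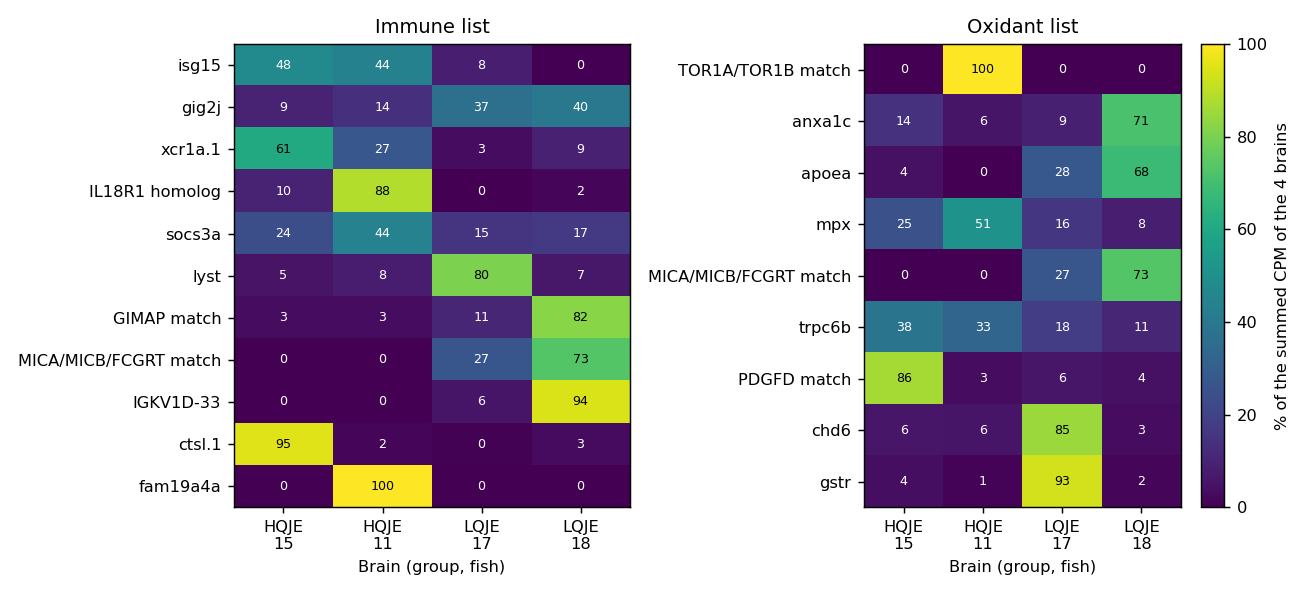
Share of the summed CPM of the 4 brains (colour and number, in percent) held by each brain (columns, HQJE left of LQJE, with fish numbers) for the 11 transcripts of the immune list and the 9 of the oxidant list. In both lists many transcripts are held mostly by 1 brain, while the trpc6b row is spread over all 4 and is higher in both HQJE brains.

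The oxidant list held 9 transcripts, namely 8 whose human matches the study files under response to oxidative stress, mpx and anxa1c among them, and a glutathione S-transferase, gstr. The transcript paired with MICA, MICB and FCGRT is in the immune list as well and is counted in both. In 4 of the 9 the log2 fold change was positive and in 5 it was negative. The median was -2.04, which is the value of anxa1c. It too could not lie near 0, given the 2-fold limit of the study's list. The transcript past the threshold was 1 of the 9, trpc6b, beside 0.189% of all transcripts, with 289 and 248 counts in HQJE fish 15 and 11, against 85 and 93 counts in LQJE fish 17 and 18. The gstr transcript, which encodes an enzyme that conjugates glutathione, had 19 and 5 counts in the HQJE brains, against 288 and 10 in LQJE fish 17 and 18, so that fish 17 held 93.3% of the summed CPM. The apolipoprotein gene apoea had 1 and 0 counts in the HQJE brains, against 4 and 18 in the LQJE brains. In 4 of the 9 transcripts 1 brain held more than 75%, which was not so for mpx or anxa1c. Both lists were chosen from transcripts that the study listed on these same brains, so their counts are no independent evidence of a direction.

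The choice of test moved the calls more than the values. The exact test of edgeR put all 4 genes past the threshold, as it did 0.72% of all transcripts. The likelihood ratio test (0.655% of all transcripts) and DESeq2 (0.287%) put mpx, xdh and irf1b past it, and so did library sizes without TMM scaling (0.217%). With DESeq2 size factors in edgeR (0.233%) these were mpx and irf1b, and with the filter on low counts (0.216%) irf1b alone. Nothing is read from these calls, since the contrast chose the genes.

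**Figure D5:**
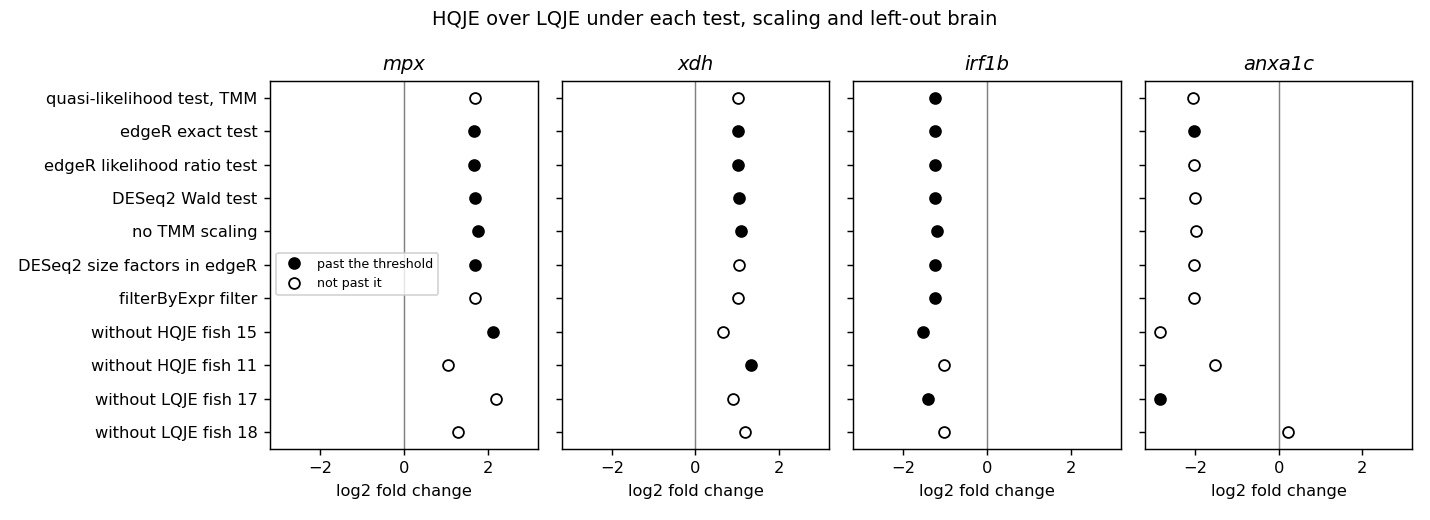
Log2 fold change of HQJE over LQJE (horizontal axis) for the 4 genes under each test, scaling, filter and left-out brain (rows). Filled points are past the cutoffs of the study in the test of that row and open points are not. The values of mpx and xdh stay above 0 and those of irf1b below 0 in all rows, while anxa1c lies at 0.22 without LQJE fish 18. Where the groups do not overlap, as in mpx, xdh and irf1b, a kept sign with a brain left out is built in.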

How the data were processed

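The deposited values are raw read counts per transcript and brain, which the authors obtained with Bowtie2 from quality-trimmed reads aligned to X. multilineatus transcripts named by their best X. maculatus match. The sources used here do not say how read pairs, strands and multiple matches were treated. Groups were taken from the sample titles. Each brain is a separate fish, and the test sets the group difference against the spread between the 2 fish of each group. For each transcript edgeR estimates that spread with help from all other transcripts. Transcripts without a count (398) were left out, and 18474 were tested with the edgeR 4.0.16 quasi-likelihood test (R 4.3.3, limma 3.58.1, TMM scaling), with Benjamini-Hochberg adjustment over all. Standard errors were derived from the test, as the size of the log2 fold change over the root of F. No p-value is printed for the 4 genes, because the contrast chose them. No pair of brains agreed within sampling noise (chi-square over its degrees of freedom, 14.9 to 29.7 over transcripts with at least 10 counts). On simulated data with 200 transcripts changed 4-fold between HQJE and LQJE (18369 transcripts), 191 were recovered and 69 unchanged ones were called. A 4-fold change is larger than the fitted folds of mpx, xdh and irf1b. The simulation therefore does not speak for changes of their size, and no power in these brains is read from it.

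The alternatives were the edgeR exact test (common and tagwise dispersions), the likelihood ratio test, no TMM scaling, the filterByExpr filter, DESeq2 1.42.0, its size factors used in edgeR, and each brain left out. The members and lists were chosen with earlier results of these data known. The genes named are the 4 members, the immune and oxidant transcripts of the study's list, the marker genes named there and, for each member, the 3 named transcripts with the smallest distance in centred log2 CPM (prior count 2, mean of at least 1 CPM). Names come from the study's list alone, and the other annexins, interferon regulatory factors, peroxidases and antioxidant genes were not analysed here for want of names. No sequences were used.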

Additional observations from a re-analysis of the deposited data

How the results depend on the processing

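Over the 10 alternatives the log2 fold change kept its sign for mpx, xdh and irf1b in all and for anxa1c in 9. In mpx, xdh and irf1b the groups do not overlap, so a kept sign with a brain left out is built in. The number of transcripts past the threshold was 133 with the edgeR exact test (0.72%), 121 with the likelihood ratio test (0.655%) and 53 with DESeq2 (0.287%), and between 56 and 348 with a brain left out, the highest without LQJE fish 18. It was 35 to 43 with the other scalings and the filter. Without TMM scaling 19 were higher and 21 lower in HQJE, against 9 and 26 with it. The mpx value was past the threshold with the exact test (1.68), the likelihood ratio test (1.68), DESeq2 (1.70), no TMM scaling (1.77) and DESeq2 size factors (1.71), and ranged from 1.06 to 2.19 with a brain left out. The xdh value was past it with the exact test (1.02), the likelihood ratio test (1.02), DESeq2 (1.04) and no TMM scaling (1.09), and ranged from 0.65 to 1.32. The irf1b value was past it under all 6 other tests, scalings and filters and ranged from -1.54 to -1.02 with a brain left out. The anxa1c value was past it with the exact test (-2.02) and ranged from -2.85 to 0.22, which was the value without LQJE fish 18. Why the tests differ was not tested. With a brain left out, 1 group has a single fish, which is assumed to vary like the others. No paired analysis was possible because the fish numbers of the 2 groups differ. With 2 fish per group, the spread between fish limits the precision of each value, and a count of 0 allows up to 3 counts, or 0.120 to 0.217 CPM per brain.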

Other observations

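A brain at least 5 times as high as the next, as LQJE fish 18 was for anxa1c, was rare in these data outside LQJE fish 17. The factor of 5 was chosen after the anxa1c value was seen. Among 15087 transcripts averaging at least 1 CPM, HQJE fish 15 had such a value in 6 (0.0398%) and HQJE fish 11 likewise in 6 (0.0398%). LQJE fish 17 had it in 89 (0.590%), while LQJE fish 18 had it in 5 (0.0331%), with anxa1c among them. The tmprss4a and VILL transcripts, which had the patterns nearest to anxa1c after wee2, were also at least 5-fold higher in LQJE fish 18 than in any other brain, and wee2 was not. They were picked by likeness to anxa1c, so that a high value in fish 18 is built in. The tmprss4a and VILL transcripts also reached a mean of 1 CPM only through fish 18, with at most 0.318 and 0.455 CPM in the other brains. Nothing is read from them.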
